A study of Mus musculus with 2 samples.

Results

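Expression of 10 genes that mark dendritic cell lineages or guide dendritic cell migration was compared between colon inflammatory monocytes of Nlrp6-/- mice and of wild-type (WT) mice. The list held Flt3, Zbtb46, Batf3, Xcr1, Clec9a, Itgae, Irf4, Cd209a, Siglech and Ccr7. Members were taken by name from the array annotation, using probe sets assigned to 1 gene symbol and, for a gene with several, the one with the highest mean of both arrays. A probe set of their own was found for 9 of the 10 genes, out of 22180 genes on the array. Both groups were C57BL/6 mice given the colon carcinogen azoxymethane into the peritoneum at 10 mg/kg. From day 5 they received 2% dextran sodium sulfate, an irritant that damages colon epithelium, for 5 days. Cells were taken on day 10. The Nlrp6-/- mice lack Nlrp6, which encodes a NOD-like receptor able to form inflammasomes, and the WT mice carry it. In both groups the sort of lamina propria cells kept those positive for CD11b and high for Ly6C, without CD3 and Ly6G. Each genotype was measured on 1 Affymetrix Mouse Gene 2.1 ST array. The labels do not give the age or the number of mice, whether mice were pooled, or how the Nlrp6-/- line was made.

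Dendritic cells take up antigen in tissues and carry it through lymph to lymph nodes, where they prime T cells. They develop under the growth factor FLT3 ligand. Conventional dendritic cells split into a type 1 branch that needs IRF8 and BATF3 and a type 2 branch that needs IRF4 in part, while plasmacytoid dendritic cells form a separate interferon-producing branch. In inflamed colon, Ly6C-high monocytes can also mature into cells that share features with type 2 dendritic cells.

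Levels are log2 values from robust multiarray average (RMA), and each difference is Nlrp6-/- minus WT. With 1 array per genotype there is no replicate error and no test, and every difference describes these 2 arrays. Each array's detection floor came from 1405 odorant and pheromone (vomeronasal) receptor probe sets, taken as silent here, as the 95th percentile of their levels. It was 3.22 for Nlrp6-/- and 3.26 for WT. Of all genes, 9536 passed the floor of the Nlrp6-/- array, of the WT array or of both, and these are called measured. The differences of the receptor probe sets had an SD of 0.19. Nlrp6 itself was at 2.67 in Nlrp6-/- and 2.32 in WT, below both floors, so it gave no check of the labels.

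Most of the dendritic cell lineage genes were not measurable in these sorted monocytes. Only Ccr7, Cd209a and Irf4 were above both floors, and 6 others were below both. The levels of those 6 ran from 2.67 to 3.09 in Nlrp6-/- and from 2.77 to 3.22 in WT. Most genes of the array were not measurable either. Of 22180 genes, 8567 were above both floors and 43.0% were measured, so the split among the 9 is not particular to them. None of the 3 measured genes was 1.5-fold apart, against 9.26% of all measured genes, and none was 2-fold apart, against 1.94%. By direction, the 2-fold share of all measured genes was 1.61% for higher and 0.325% for lower in Nlrp6-/-. All 3 were lower in Nlrp6-/-, by any amount, as were 48.4% of all measured genes. Their median difference was -0.13, beside 0.01 over all measured genes. The differences of Ccr7 (-0.13) and Irf4 (-0.08) were smaller in size than the SD of 0.19 of the receptor probe sets. Cd209a counts as lower by its brighter probe set only, since its dimmer set was higher in Nlrp6-/-. The number called measured depended on the floor. With the 90th percentile of the receptors all 9 passed, and with the 99th only Ccr7 and Cd209a did. In such bulk samples, fewer cells of a type and less RNA per cell cannot be told apart.

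**Figure D1:**
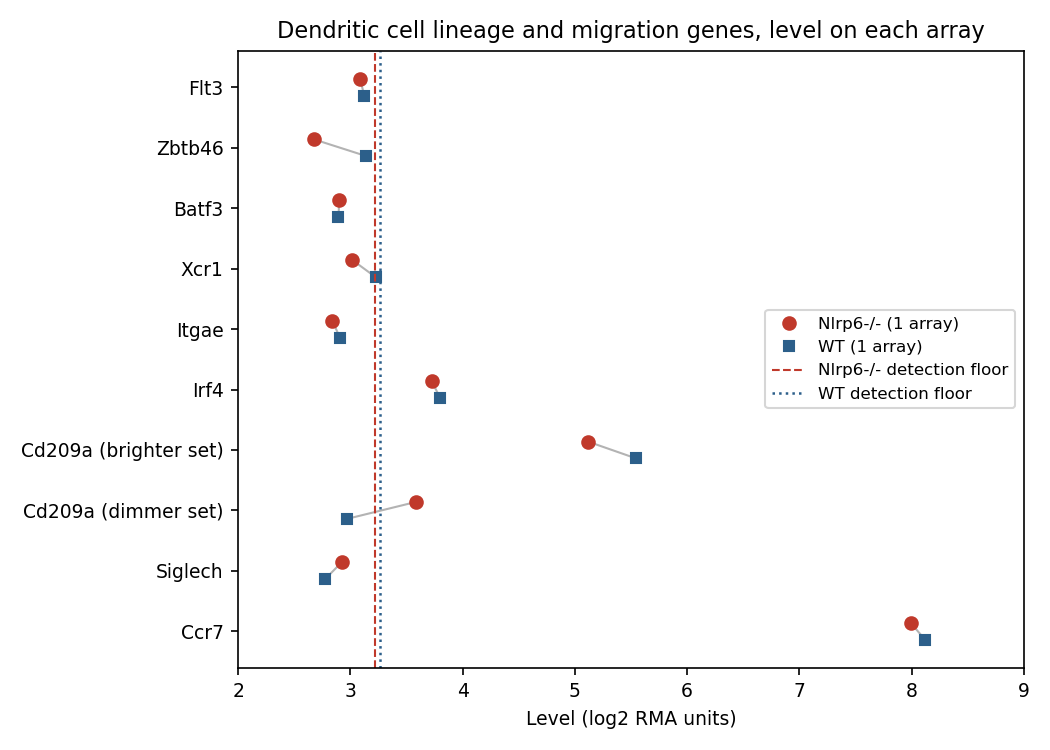
Levels of 9 of the 10 genes, all but Clec9a (log2 RMA units), with both probe sets of Cd209a. Circles are the Nlrp6-/- array, squares the WT array and vertical lines the detection floors of 3.22 and 3.26. Only Ccr7, Irf4 and the brighter Cd209a set lie above both floors, and levels of different genes are not comparable with each other.

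Flt3 encodes the receptor for FLT3 ligand on dendritic cell progenitors and dendritic cells. Its level was 3.09 in Nlrp6-/- and 3.12 in WT, each below its floor. Zbtb46 encodes a zinc finger factor that marks conventional dendritic cells and their committed precursors. Zbtb46 was at 2.67 in Nlrp6-/- and 3.14 in WT. Its difference of -0.47 lies between levels that are both below the floor, so no fold is given. Core conventional dendritic cell genes, which set these cells apart from macrophages, were measured for 11 of 18 genes with a probe set. None of the 11 was 1.5-fold apart, 5 were higher and 6 lower by any amount, and the median was -0.02. With the median difference of the arrays subtracted, 1 of them, Dpp4, passed 1.5-fold. The largest difference belonged to Dpp4, a surface peptidase, at 4.40 in Nlrp6-/- and 3.83 in WT. Next came Slamf7, an immune cell receptor also found on other leukocytes, at 9.63 in Nlrp6-/- and 10.10 in WT, and the G protein-coupled receptor gene Gpr132, at 7.39 in Nlrp6-/- and 7.76 in WT. Btla, an inhibitory receptor that lymphocytes also carry, was at 4.68 in Nlrp6-/- and 4.38 in WT.

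Growth signalling through FLT3 and the GM-CSF receptor had 12 measured genes. Of these, 9 were lower and 3 higher in Nlrp6-/- by any amount, with a median of -0.12, where 48.4% of all measured genes were lower. One gene was at least 1.5-fold lower, against 3.05% of all measured genes, and none was 1.5-fold higher, against 6.21%. That gene was Stat5b, which encodes a signal transducer of the GM-CSF receptor, at 5.60 in Nlrp6-/- and 6.21 in WT. Csf2rb, the signalling chain of that receptor, was at 7.21 in Nlrp6-/- and 7.61 in WT. Cish, a feedback inhibitor of STAT5 signalling, was at 8.02 in Nlrp6-/- and 7.55 in WT, and its dimmer probe set had the same direction, with a difference of 0.20. Ikzf1, the lymphoid and myeloid factor Ikaros, was at 6.77 in Nlrp6-/- and 6.46 in WT.

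The type 1 branch genes Batf3, Xcr1 and Itgae were below both floors. Batf3, the AP-1 family factor this branch depends on, was at 2.902 in Nlrp6-/- and 2.89 in WT. Xcr1, the receptor for the chemokine XCL1 a surface marker of the branch, was at 3.02 in Nlrp6-/- and 3.22 in WT. The WT level of Xcr1 was 0.04 under its floor, the closest of the 6 genes on either array. Itgae encodes CD103, the integrin chain that binds E-cadherin on epithelium and is found on intestinal type 1 dendritic cells and on intraepithelial T cells. It was at 2.84 in Nlrp6-/- and 2.91 in WT. Clec9a, a receptor for actin exposed by dead cells, had no probe set of its own. The 1 probe set annotated to it also lists Clec1b and was at 2.43 in Nlrp6-/- and 2.50 in WT, below both floors.

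Of 17 further type 1 genes, 12 were measured. Counting bounds, none was 1.5-fold apart, 7 were higher and 5 lower in Nlrp6-/- by any amount, and the median was 0.16. Tlr3, a sensor of double-stranded RNA named after its values were seen, had the largest difference in level, at 3.57 in Nlrp6-/- and 2.69 in WT, where it was below the floor. As a bound it was at least 1.24-fold higher, and it passed 1.5-fold with the floor at the 90th percentile or without a floor. By bound, the largest difference belonged to Cd24a, a surface glycoprotein that neutrophils and epithelium carry too, at 9.03 in Nlrp6-/- and 8.47 in WT. Its dimmer probe set differed by 0.35 in the same direction. Xcl1, the ligand of XCR1, which T and NK cells secrete, was at 5.16 in Nlrp6-/- and 4.71 in WT. Cd8a, a co-receptor chain of T cells that some dendritic cells of lymphoid organs carry, was at 3.64 in Nlrp6-/- and below the floor in WT, and was at least 1.30-fold higher. Ly75, the endocytic receptor DEC-205, was at 5.77 in Nlrp6-/- and 6.10 in WT.

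Irf4 and Cd209a, genes of the type 2 branch and of monocyte-derived dendritic cells, were above both floors. Irf4, a transcription factor also used by plasma cells and activated T cells, was at 3.72 in Nlrp6-/- and 3.80 in WT. These levels were 0.50 and 0.54 above the floors of Nlrp6-/- and WT, and the difference was -0.08. Among 1977 genes with mean levels from 3 to 4 and both arrays above the floor, the 5th and 95th percentiles of the difference were -0.43 and 0.47, so the Irf4 difference lies well inside this range. At the 99th percentile floor Irf4 was not measured on either array.

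Cd209a encodes a C-type lectin related to human DC-SIGN that marks mouse monocyte-derived and type 2 dendritic cells. Its brighter probe set was at 5.11 in Nlrp6-/- and 5.55 in WT, 1.35-fold lower in Nlrp6-/-. The difference of -0.43 lies inside the range of -0.52 to 0.73 between the 5th and 95th percentiles of 3542 genes at mean levels from 4 to 6. The dimmer probe set went the other way, at 3.58 in Nlrp6-/- and 2.97 in WT, where it was below the floor, so that it was at least 1.25-fold higher in Nlrp6-/-. The differences of the brighter and the dimmer set were 1.04 apart. Over 462 genes with several probe sets, each above a floor, the median disagreement was 0.33, and 4.33% of them disagreed by at least as much as Cd209a. With the mean of both sets the difference of Cd209a was 0.09, so these arrays give no settled direction for it.

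The type 2 branch list had 10 measured genes, of which Epcam passed 1.5-fold as higher in Nlrp6-/- and Notch2 and Ltb as lower. Over all measured genes these shares were 6.21% and 3.05%. The median was 0.00. Notch2, the receptor whose signal type 2 dendritic cells of spleen and gut need, was at 7.67 in Nlrp6-/- and 8.44 in WT, 1.70-fold lower. Ltb, which encodes lymphotoxin beta, was at 3.61 in Nlrp6-/- and 4.28 in WT, 1.59-fold lower. Epcam, an adhesion molecule of epithelium and of Langerhans cells, was at 5.74 in Nlrp6-/- and 4.71 in WT. Epithelial markers as a whole, a list that includes Epcam, were higher in Nlrp6-/-: all 14 measured were higher by any amount and 9 of them at least 1.5-fold. With the floor at the 99th percentile, 5 were at least 1.5-fold higher. The dimmer probe sets of Cdh1 and Krt18 differed by 0.29 and 0.33 in the same direction, against 1.47 and 1.42 for the brighter sets. The mean level over the 18 epithelial genes was 4.69 in Nlrp6-/- and 3.88 in WT, and the part of other cells in the Epcam difference was not tested. Sirpa, the surface receptor of type 2 dendritic cells and of macrophages, was at 8.16 in Nlrp6-/- and 8.51 in WT.

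Relatives of the CD209 and SIGLEC lectin families were measured for 5 of 11 genes. None was 1.5-fold apart, 4 were higher and 1 lower in Nlrp6-/- by any amount, and the median was 0.33. Of all measured genes, 51.6% were higher by any amount. Cd33 was at 6.81 in Nlrp6-/- and 6.30 in WT. Cd209c, a close relative of Cd209a, was at 7.31 in Nlrp6-/- and 6.97 in WT. Siglecg, an inhibitory receptor best known from B cells, was at 5.23 in Nlrp6-/- and 4.91 in WT, and Siglece, an inhibitory receptor of neutrophils and macrophages, was at 6.99 in Nlrp6-/- and 6.69 in WT. The remaining 6 relatives were below both floors, so Cd209a and Cd209c were the only measured genes of the CD209 family among those with a probe set of their own.

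**Figure D2:**
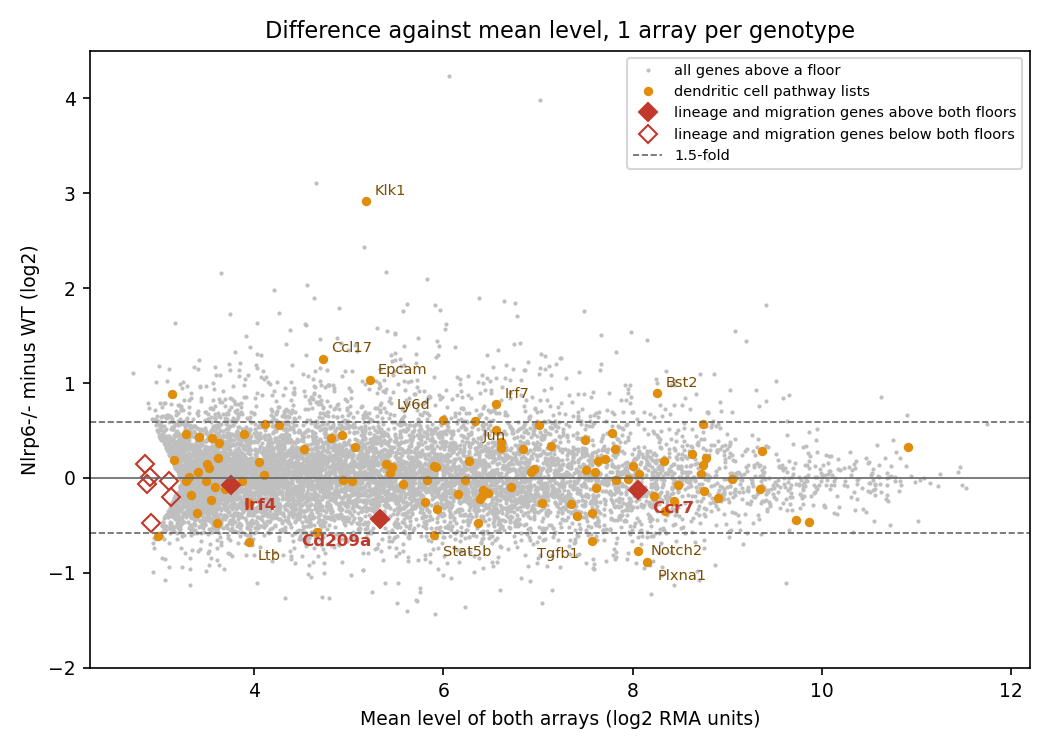
Difference between genotypes (Nlrp6-/- minus WT, log2) against the mean level of both arrays (log2 RMA units). Grey points are the 9536 measured genes and orange points genes of the dendritic cell pathway lists. Filled diamonds are Ccr7, Cd209a and Irf4, and open diamonds the 6 genes below both floors. Orange points are named where at least 1.5-fold apart, using the bound for genes below the floor on 1 array. Tlr3 and Cd207 lie past the dashed lines by level but not by bound and are not named. All filled diamonds lie between the dashed 1.5-fold lines.

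Siglech encodes a surface receptor of mouse plasmacytoid dendritic cells. It was at 2.92 in Nlrp6-/- and 2.77 in WT, below both floors. Of 16 plasmacytoid genes with a probe set, 11 were measured, and 4 of them passed 1.5-fold, every one higher in Nlrp6-/-, a direction and size shared by 6.21% of all measured genes. The median was 0.15. The leading gene was Klk1, a tissue kallikrein of glandular epithelium that is also listed as a mouse plasmacytoid dendritic cell gene, at 6.65 in Nlrp6-/- and 3.73 in WT, 7.56-fold higher. Bst2 and Irf7, both induced by interferon in many cell types, followed. Bst2, which encodes tetherin, was at 8.71 in Nlrp6-/- and 7.81 in WT, and Irf7, the factor that drives interferon alpha genes, was at 6.95 in Nlrp6-/- and 6.17 in WT. Ly6d, also found on B lineage and epithelial cells, was at 6.30 in Nlrp6-/- and 5.69 in WT. The epithelial markers given above, with 14 of 14 higher and 9 of them past 1.5-fold, had the same direction as Klk1 and Ly6d, and their part in these differences was not tested. Tcf4, which encodes the factor E2-2 that plasmacytoid cells depend on, was at 6.07 in Nlrp6-/- and 6.24 in WT, and its partner Spib was below both floors, a pair named after their values were seen.

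Ccr7, the receptor that guides dendritic cells and naive T cells along CCL19 and CCL21 to lymph nodes, was well above both floors. It was at 7.99 in Nlrp6-/- and 8.12 in WT, 4.77 and 4.86 above the floors. The difference of -0.13 corresponds to a level 1.09-fold lower in Nlrp6-/-. Of all measured genes, 31.4% differed by less in size. Among 847 genes with a mean level over 8, the 5th and 95th percentiles were -0.55 and 0.62. With the median subtracted, quantile normalization renewed or a loess curve subtracted, the Ccr7 difference ran from -0.13 to -0.11. The other alternative settings could not change it. Naive T cells also carry CCR7. T and NK cell markers were measured for 13 of 22 genes and averaged 3.98 in Nlrp6-/- and 3.79 in WT over all 22. Cd3d was at 4.99 in Nlrp6-/- and 4.52 in WT, Cd3e at 3.98 in Nlrp6-/- and 4.21 in WT, and Cd3g at 3.53 in Nlrp6-/- and 3.33 in WT, all above the floors although CD3 was gated out. Il7r was at 8.54 in Nlrp6-/- and 8.58 in WT, and Cd28 at 5.64 in Nlrp6-/- and 5.48 in WT. The 9 T and NK cell markers below both floors included Cd4, Cd8b1 and Lef1. These 5 genes were named after their values were seen. The part of T cells in the Ccr7 level was not tested.

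Genes of the mature migratory state, which dendritic cells switch on together with Ccr7, were nearly all measurable. Of 23 genes with a probe set, 21 were above both floors, where 43.0% of all genes were measured. In Nlrp6-/-, 14 of the 21 were higher and 7 lower by any amount, with a median of 0.09. Of all measured genes, 48.4% were lower. One was at least 1.5-fold higher, against 6.21% of all measured genes, and none lower, against 3.05%. Under renewed quantile normalization and under the loess curve 1 gene was lower by that much. The higher gene was Ccl17, a chemokine for CCR4-bearing T cells, at 5.36 in Nlrp6-/- and 4.10 in WT, 2.39-fold higher. Ccl22, which encodes the other CCR4 ligand, was at 6.91 in Nlrp6-/- and 7.17 in WT, a gene named after its values were seen. Pdcd1lg2, the checkpoint ligand PD-L2, was at 4.38 in Nlrp6-/- and 4.95 in WT, 1.49-fold lower and so just short of 1.5-fold. Il15ra, which presents IL-15 to T and NK cells, was at 7.29 in Nlrp6-/- and 6.73 in WT. Socs2, a feedback inhibitor of cytokine signalling, was at 4.13 in Nlrp6-/- and 3.66 in WT, but its dimmer probe set differed by only -0.02. Fscn1, the actin-bundling protein fascin that gives migratory dendritic cells their processes, was at 3.58 in Nlrp6-/- and 3.43 in WT. These levels are near the floors of 3.22 and 3.26, and Fscn1 was also chosen after its values were seen. Slco5a1 and Tbc1d4, likewise named after their values were seen, were below both floors. Which cells in the sort carried the measured genes of this list was not tested.

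**Figure D3:**
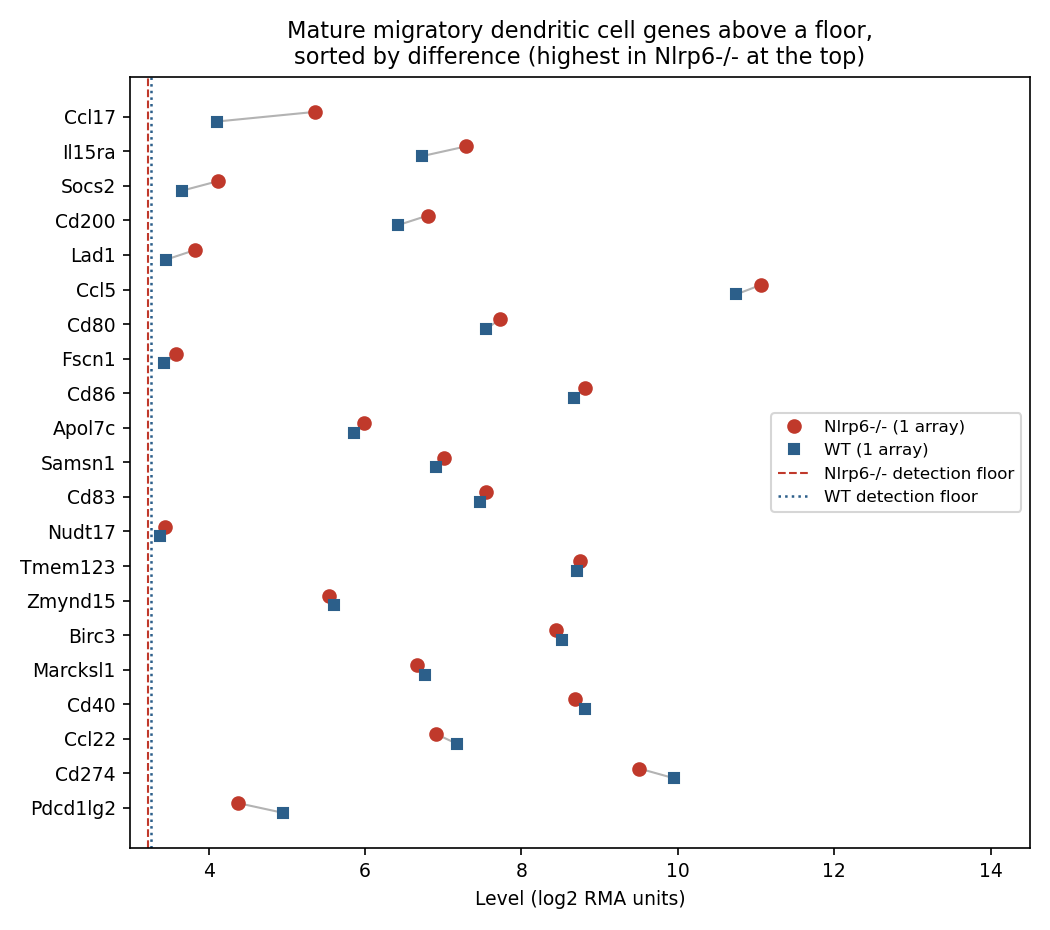
Levels of the 21 measured genes of the mature migratory list (log2 RMA units), circles for Nlrp6-/- and squares for WT, sorted by difference. Ccl17 stands out at 5.36 in Nlrp6-/- against 4.10 in WT, and no other gene is 1.5-fold apart.

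Genes that act with CCR7 in guidance were measured for 6 of 7, of which 2 were higher and 4 lower in Nlrp6-/- by any amount, with a median of -0.24. Of all measured genes, 48.4% were lower by any amount. Plxna1, the semaphorin receptor plexin A1 that helps dendritic cells enter lymphatic vessels, was at 7.71 in Nlrp6-/- and 8.59 in WT, 1.84-fold lower. It was the 1 gene of this list past 1.5-fold, where 3.05% of all measured genes were at least 1.5-fold lower. Its other probe set was at 5.56 in Nlrp6-/- and 6.24 in WT, so both sets gave the same direction. Arhgap31, a regulator of the small GTPases Rac1 and Cdc42, was at 6.13 in Nlrp6-/- and 6.61 in WT. St8sia4, the enzyme that adds the polysialic acid CCR7 carries for its response to CCL21, was at 8.31 in Nlrp6-/- and 8.56 in WT. Sema7a, a membrane-bound semaphorin, was at 3.42 in Nlrp6-/- and 3.66 in WT.

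Functions of intestinal dendritic cells were measured for 8 of 10 genes, of which 1 was at least 1.5-fold lower in Nlrp6-/-, against 3.05% of all measured genes, and none higher. Without a floor the lower count was 2. The median was 0.11, or 0.05 with genes below 1 floor at their bound. The lower gene was Tgfb1, a cytokine that favours regulatory T cells, at 7.24 in Nlrp6-/- and 7.90 in WT, 1.58-fold lower. Il23a, the specific subunit of IL-23, was at 5.02 in Nlrp6-/- and 4.60 in WT. Il12b, the subunit that IL-12 and IL-23 share, was at 3.76 in Nlrp6-/- and 3.35 in WT. Itgb7, the partner chain of the CD103 integrin, was at 5.52 in Nlrp6-/- and 5.40 in WT, while the gene for CD103 was below both floors. The retinoic acid enzyme gene Aldh1a2 and the IL-22 inhibitor gene Il22ra2, both named after their values were seen, were also below both floors.

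The partner list holds BATF, JUN and IRF family factors and other factors set beside them, such as Klf2 and Prdm1. All 10 of its genes with a probe set were measured. In Nlrp6-/-, 7 were higher and 3 lower by any amount, with a median of 0.12, where 48.4% of all measured genes were lower. Only Jun passed 1.5-fold, which 6.21% of all measured genes did as higher, at 6.63 in Nlrp6-/- and 6.03 in WT. Its 1.51-fold is at the threshold, and under renewed quantile normalization 0 genes of this list passed. Klf2, a factor of resting leukocytes, was at 4.54 in Nlrp6-/- and 3.98 in WT, and Irf1, an interferon-induced factor, at 7.21 in Nlrp6-/- and 7.48 in WT. Jund was at 7.69 in Nlrp6-/- and 7.30 in WT, but its dimmer set was at 4.34 in Nlrp6-/- and 4.61 in WT, so the sets disagreed in direction. Batf, which can stand in for BATF3 and was named after its values were seen, was at 8.42 in Nlrp6-/- and 8.24 in WT.

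Over the 10 pathway lists together, with each gene counted once, 106 of 139 genes were measured. Of these 11.3% were at least 1.5-fold apart, close to the 9.26% of all measured genes, with 7 higher and 5 lower. At 2-fold there were Klk1, Ccl17 and Epcam, 2.83% against 1.94% of all measured genes.

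**Figure D4:**
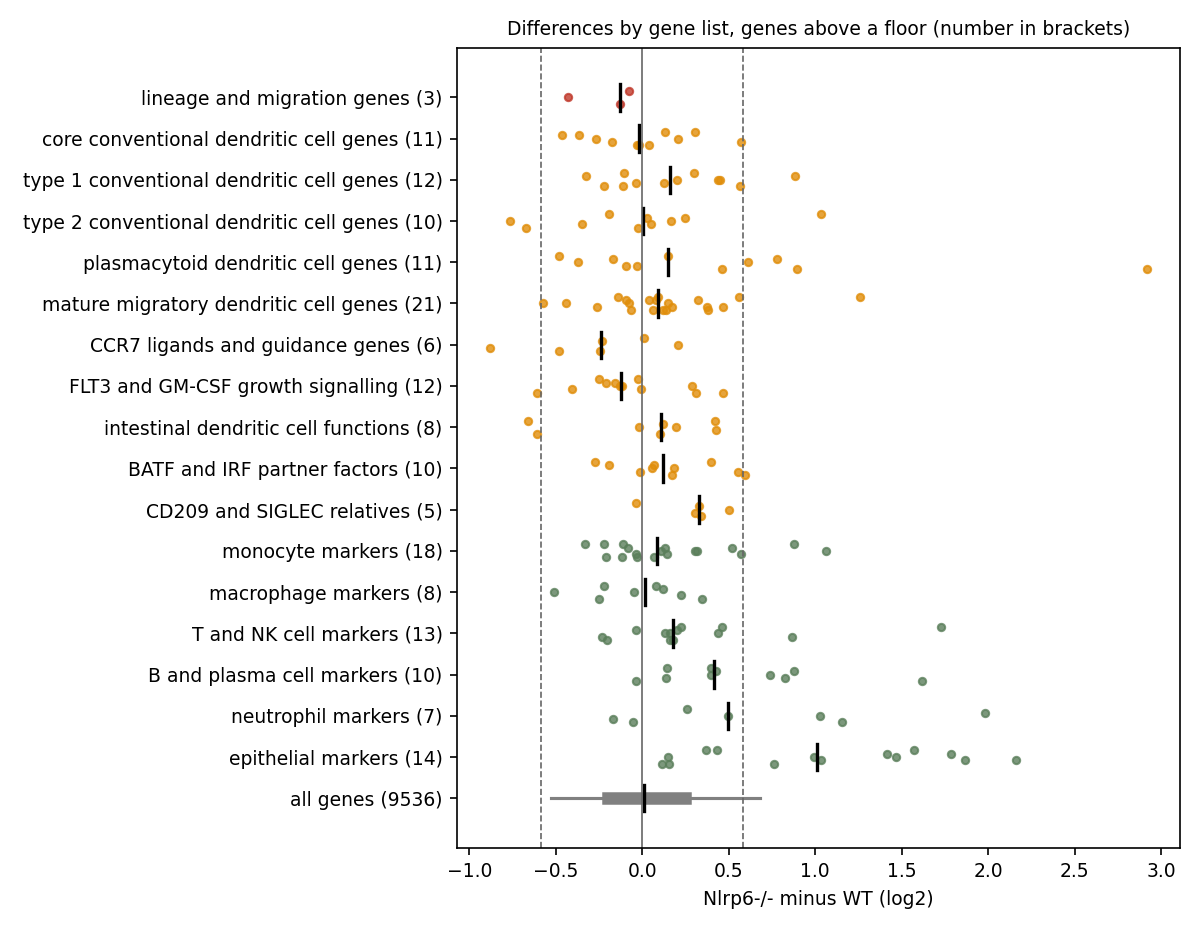
Difference (Nlrp6-/- minus WT, log2) of each measured gene, by list, with the median as a black bar and the number of genes in brackets. The bottom row gives the middle 50% (thick line) and 90% (thin line) of all 9536 measured genes, and dashed lines mark 1.5-fold. Genes below the floor on 1 array are drawn at their measured difference, while the counts in the text use the bound. The lineage and migration genes have a median of -0.13, while the epithelial markers lie highest with a median of 1.01.

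The sort's own markers and markers of other cells were set beside these values. Itgam, which encodes CD11b, was at 8.25 in Nlrp6-/- and 8.46 in WT, and Ly6c2 at 9.36 in Nlrp6-/- and 9.06 in WT. The share of all measured genes at least 1.5-fold higher was 6.21%. Of 18 measured monocyte markers 2 were, with a median of 0.09, and none of 8 macrophage markers was, with a median of 0.02. B and plasma cell markers, of which plasma cells also use Irf4, were measured for 10 of 17 genes, with 4 at least 1.5-fold higher and a mean level of 4.55 in Nlrp6-/- and 4.30 in WT. Neutrophil markers had 3 of 7 measured genes at least 1.5-fold higher, and Ly6g was at 3.58 in Nlrp6-/- and 3.32 in WT. T and NK markers had 2 of 13. With the floor at the 99th percentile the T and NK count was 0 and the B and plasma cell count 2. No gene of these 3 lists was 1.5-fold lower. Their part in the differences of the dendritic cell genes was not tested.

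Promoter sequences are shown for both members of the type 2 branch that were measured, Irf4 and Cd209a, and for Zbtb46, whose window holds a composite site of the BATF and IRF factor families. RefSeq (GRCm38.p6) windows of 250 bases before to 50 bases after a start site were found for 8 of the 10 genes. Of 12 motifs searched, those shown were picked after their matches were seen. Capitals mark the match, and each sequence is read 5′ to 3′ on the strand of the gene.
Irf4, chr13:30748983-30749282, plus strand, kappaB-like site: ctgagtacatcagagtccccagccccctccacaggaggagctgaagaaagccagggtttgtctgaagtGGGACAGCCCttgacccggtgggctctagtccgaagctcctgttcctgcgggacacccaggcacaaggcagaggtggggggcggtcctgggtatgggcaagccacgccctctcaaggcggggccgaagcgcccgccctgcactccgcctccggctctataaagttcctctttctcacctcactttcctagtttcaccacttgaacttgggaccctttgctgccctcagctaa
Cd209a, chr8:3748935-3749234, minus strand, ETS-IRF composite site on the other strand: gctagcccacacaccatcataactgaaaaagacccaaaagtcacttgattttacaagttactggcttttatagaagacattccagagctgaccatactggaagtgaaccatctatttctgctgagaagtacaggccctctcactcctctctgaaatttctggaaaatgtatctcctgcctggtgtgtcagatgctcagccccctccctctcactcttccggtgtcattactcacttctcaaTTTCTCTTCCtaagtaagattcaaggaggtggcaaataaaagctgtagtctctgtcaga
Zbtb46, chr2:181424339-181424638, minus strand, AP-1-IRF composite site on the other strand: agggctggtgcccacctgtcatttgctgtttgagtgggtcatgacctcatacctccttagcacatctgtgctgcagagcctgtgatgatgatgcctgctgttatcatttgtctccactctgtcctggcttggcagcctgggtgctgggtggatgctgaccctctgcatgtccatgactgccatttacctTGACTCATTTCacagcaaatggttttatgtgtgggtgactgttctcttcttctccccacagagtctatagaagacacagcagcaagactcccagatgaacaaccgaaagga
The match began 182 bases before the start site in Irf4, 9 bases before it in Cd209a and 61 bases before it in Zbtb46. Matches were counted on both strands over 32851 promoter windows of this length. The kappaB-like letters, GGGA and CC with 4 bases of any kind between them, were in 20.7% of the windows. The ETS-IRF composite, GGAA and GAAA with 2 bases of any kind between them, was in 2.72%. The AP-1-IRF composite, GAAA directly followed by TGANTCA, was in 0.125%. TGANTCA alone, the AP-1 site, was in 7.81% of all windows and, among the 8 genes, in Zbtb46 only. The interferon response letters, GAAA and GAAA with 2 bases of any kind between them, which can overlap the ETS-IRF letters, were in 3.44% of all windows and in none of the 8.
Also searched were a strict kappaB site (GGGAAA and CCC with 1 base of any kind between them, 0.527% of windows) and the PU.1 site GAGGAAGT (3.20%), also with A before and G after it (0.426%), with no match in the 8 genes. The E-box CANNTG, present in 72.3% of windows, was in all 8, and the TATA box TATAAA (13.6%) was in Clec9a, Cd209a, Xcr1 and Irf4. The STAT letters TTCNNNGAA (8.30%) were in Batf3 and Siglech, and the narrower TTCNNGGAA (4.81%), whose matches they include, in Batf3. A match is a run of letters in a window and was not set against any measurement of factor binding.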

How the data were processed

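Per the labels' protocols, 10 ng of RNA from each sort was amplified, labelled with biotin and hybridised to Affymetrix Mouse Gene 2.1 ST arrays, scanned with Gene Atlas software 1.0.4.267. The authors computed RMA values with the oligo package in R 2.15.1, per the labels' protocols, and the deposited table holds these log2 levels, with medians of 2.84 in Nlrp6-/- and 2.87 in WT. RMA equalises the distributions of arrays normalized together, so a shift of all transcripts would not be seen. The genotype label set the groups. With a single array each, the number of arrays limits the precision, and nothing was tested.

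Of 41345 probe sets, 23521 had 1 gene symbol, 1814 several and 16010 none, and genes were named only from the first. All 9 members matched RefSeq gene identifiers with the same symbol. Where 1 array was below its floor, the fold is a bound, the brighter level against the higher of the floor and the dim level. Named genes were the 10 members, up to 4 genes with the largest differences per list, the sort's markers, and others marked as chosen after their values were seen. Lists were described by counts and medians. The members and lists were chosen with earlier results of these data known. Alternatives were floors at the 90th and 99th percentiles or none, median subtraction, renewed quantile normalization, a loess curve (span 0.3) and averaging all probe sets of a gene. Computation used Python 3.11.15 with numpy 2.4.6, pandas 2.3.3 and statsmodels 0.14.6, and was tested on simulated arrays with known changes.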

Additional observations from a re-analysis of the deposited data

Results flagged for a closer look

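Probe sets that list several gene symbols entered no comparison, and some that touch dendritic cell genes carried a signal above the floor. The 9 probe sets that list copies of the CCR7 ligand gene Ccl21 were all above both floors, at 5.90 to 6.40 in Nlrp6-/- and 5.33 to 5.94 in WT, and all 9 were higher in Nlrp6-/-. The largest of these differences was 0.66. They held 5 distinct pairs of values, so they are not independent. A probe set that lists Zeb2, a transcription factor of monocytes and type 2 dendritic cells, together with Mir5129 was at 7.996 in Nlrp6-/- and 8.60 in WT, a difference of -0.60. The other Zeb2 set, shared with Zeb2os, was at 6.96 in Nlrp6-/- and 7.13 in WT. No group has 4 or more samples, so no array was compared with others of its genotype.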

How the results depend on the processing

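None of the genes Ccr7, Cd209a, Irf4, Flt3, Zbtb46, Batf3, Xcr1, Itgae and Siglech was 1.5-fold apart under any of the 7 alternatives. Of their 63 values under these alternatives, 1 moved by more than the SD of 0.19 of the silent receptors. It was Cd209a, at 0.09 with the mean of its probe sets. The floor settings cannot change a difference, and averaging probe sets can change only that of Cd209a, so many of these values could not move. How many of these genes counted as measured followed the floor, with 9 at the 90th percentile or without a floor, and 2 at the 99th, against 3. With the floor at the 99th percentile, where 4950 genes were measured, 93 genes were at least 2-fold higher against 154, 329 at least 1.5-fold higher against 592, and 189 at least 1.5-fold lower against 291. At that floor Ltb was below it on both arrays, and Epcam and Ccl17 passed it in Nlrp6-/- only, so that as bounds they no longer reached 2-fold, nor Ccl17 1.5-fold. The plasmacytoid list's median was then 0.70, against 0.15. Under the loess curve Epcam was also under 2-fold. Counts at 1.5-fold in small lists moved by 1 gene where a level lay near the threshold or a floor: the core list with the median subtracted (1 higher against 0), the type 1 list at the 90th percentile or no floor (1 higher against 0), the migratory list with renewed quantile normalization or loess (1 lower against 0), the partner list with renewed quantile normalization (0 higher against 1) and the intestinal list without a floor (2 lower against 1). Of 112 list medians under the alternatives, 8 moved by more than 0.19. The only list median at least 1.5-fold apart, that of the epithelial markers, kept its sign. Signs of single genes outside the members were not followed. No paired analysis was possible because each genotype had 1 array, and leaving out a replicate was likewise not possible.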

Other observations

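Other probe sets with several symbols touch the same programme. Those that list Ccl19, the second CCR7 ligand, with predicted copies went the other way from Ccl21: of 13, 12 were lower in Nlrp6-/-, with differences from -0.48 to 0.09, and 7 were above both floors. Levels of these sets ran from 2.26 to 4.62 in Nlrp6-/- and from 2.42 to 4.88 in WT, and some hold identical values. A probe set shared by Flt3l, the FLT3 ligand gene, and Rpl13a was at 3.41 in Nlrp6-/- and 3.31 in WT. One shared by Jaml, a junctional adhesion receptor of leukocytes, and Gm10684 was at 4.80 in Nlrp6-/- and 4.30 in WT. One shared by Irf5 and Tnpo3 was at 5.97 in Nlrp6-/- and 5.82 in WT, and one shared by Nup62, Il4i1 and Il4i1b was at 7.30 in Nlrp6-/- and 7.36 in WT.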
